A study of Mus musculus with 74 samples.

Results

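The regions described here were the centromere-proximal ends of mouse chromosomes 12, 15, 16, 18 and 19, taken as every 40 kb window that starts from 3 Mb to under 23 Mb in the mm9 assembly. The rule used position and no measured value, but it was drawn up with earlier results of these data known. Each of the 5 regions held 500 windows, so that 2500 of the 68162 windows in the table were members. They were compared with the same interval of the 14 other autosomes (7000 windows) and with the distal remainder of their own chromosomes (9007 windows).

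These chromosomes are the usual carriers of nucleolus organizers in laboratory mice. A nucleolus organizer is an array of ribosomal RNA genes, and the nucleolus forms around arrays that are being transcribed. Mouse chromosomes have the centromere at one end, the arrays lie close to it, and centromeric satellite DNA of several chromosomes gathers into chromocentres, often at the nucleolar border. Which chromosomes carry an array varies between strains, and the labels (strain 129/Ola) do not give the carriers of this cell line. Neither the arrays nor most of the satellite are part of the assembled chromosomes, so the windows report on the DNA next to them. The question was whether these 5 chromosome ends were found in the same nuclear slice more often than other chromosome ends.

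Genome architecture mapping (GAM) was applied to mouse embryonic stem cells of the 46C line, which was derived from E14tg2a cells and carries a green fluorescent protein reporter at Sox1. Each of the 74 libraries held 1 nuclear profile, the thin slice of 1 nucleus that falls in a cryosection, and each window was scored as present or absent in it. All libraries came from untreated cells moved to serum-free medium a day before harvest, and they formed a single group with no control arm. The prefix of their names, f13 in 34 libraries and f14 in 40, is not explained by the labels.

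A library was positive for 5.27% ± 2.68 of the genome (SD, n = 74), from 0.0205% to 12.4%, and 5 libraries were below 1%. The depth of sequencing is unknown, because the table keeps calls and no reads. Each profile comes from a different nucleus, but the libraries belong to 1 culture as far as the sources say, so p-values measure the spread between these profiles only.

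The first sequenced bases of the regions are shown because they mark how close the windows come to the satellite arrays. The opening of chromosome 9, where the assembly does run into satellite repeats, is set beside those of 4 of the 5 regions. All lie on the plus strand of mm9 (NCBIM37), at chr9:3000001-3000180 and at positions 3000001 to 3000120 of the other chromosomes. Capitals mark TCAGTTTTC, the reverse complement of GAAAACTGA, a core stretch of the mouse major satellite that was searched on both strands.

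chromosome 9: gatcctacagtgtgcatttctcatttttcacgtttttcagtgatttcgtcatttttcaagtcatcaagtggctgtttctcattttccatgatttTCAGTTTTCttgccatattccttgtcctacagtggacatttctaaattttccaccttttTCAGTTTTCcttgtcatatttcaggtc
chromosome 12: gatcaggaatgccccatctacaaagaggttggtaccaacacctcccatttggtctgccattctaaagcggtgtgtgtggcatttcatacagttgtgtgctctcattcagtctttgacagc
chromosome 15: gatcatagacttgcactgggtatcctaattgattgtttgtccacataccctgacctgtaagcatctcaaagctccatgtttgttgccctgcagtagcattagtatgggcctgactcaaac
chromosome 16: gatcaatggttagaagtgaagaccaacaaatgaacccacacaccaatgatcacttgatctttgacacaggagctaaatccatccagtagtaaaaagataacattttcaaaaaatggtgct
chromosome 19: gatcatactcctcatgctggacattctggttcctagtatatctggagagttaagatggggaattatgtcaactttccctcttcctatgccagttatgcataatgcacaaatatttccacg

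The core stretch occurred 2 times in the 180 bases of chromosome 9. It occurred 0 times in the 120 bases shown for each of chromosomes 12, 15, 16 and 19, and the opening of chromosome 18 is not shown. Over whole windows, at least 1 match was present in 58.2% of member windows and in 56.8% of the 61816 autosomal windows, so single matches were common everywhere. Windows with 10 or more matches were rare, with 4 among the autosomes and 0 among the members, whose highest number was 7. The chromosome 9 window at chr9:3000001-3040000 held 304 matches and was positive in 48 of 74 libraries. The CENP-B box, the binding motif of a centromere protein, had a match in 1 autosomal window and in 0 member windows. The member windows therefore held no satellite block by this count. Before 3 Mb the autosomal windows held 0 positive calls.

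The 5 regions were seen about as often as other chromosome ends, with one region below its own distal part. On average 6.28% ± 6.06 of member windows were positive per library (SD, n = 74), with a median of 4.90% and a range from 0% to 38.4%. For the same interval of the other autosomes the value was 6.56% ± 4.70 (SD, n = 74), from 0% to 23.8%. The distal parts of the 5 member chromosomes reached 5.45% ± 4.03 (SD, n = 74), from 0.0118% to 21.4%. The upper end of the member range and of their distal range was the same library, f14b3, which also had the highest genome coverage.

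The member regions fell short of the other proximal regions by 0.279 percentage points (95% jackknife interval -1.44 to 0.882). This difference did not pass a two-sided sign-flip permutation test over libraries (p = 0.644, adjusted over the 2 coverage contrasts p = 0.644), and members were higher in 26 of 74 libraries. Against their own distal parts the proximal regions were higher by 0.834 percentage points (interval -0.0953 to 1.76, p = 0.0814, adjusted p = 0.163 in the same permutation test), in 39 of 74 libraries. When the proximal interval was cut at 13 Mb the latter difference was 1.63 points (adjusted p = 0.0172), and it was 1.25 points without chromosome 18 (adjusted p = 0.0253), so that this comparison changed sides of the threshold with the definition of the regions.

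Among the members, chromosome 15 had the highest mean coverage over all libraries and chromosome 18 the lowest, an order that was not the same under both name prefixes. Coverage of the chromosome 15 region averaged 7.23% ± 10.9 (SD, n = 74), with a median of 2.20% and a highest value of 49.4% in f13g1. The chromosome 16 region averaged 6.66% ± 9.65, with a median of 0.900% and a highest value of 43.2% in f13g4. For chromosome 19 the mean was 6.25% ± 8.59, the median 1.20% and the highest value 34% in f14c4. These SDs exceeded the means because most profiles held little or nothing of a region and a few held a large piece of it.

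The chromosome 12 region averaged 6.03% ± 10.4, with a median of 1.30% and a highest value of 48.6% in f14b3. The chromosome 18 region had the lowest mean, 5.25% ± 9.30, with a median of 1.20%, and yet the highest single value among the 5 members, 63.4%, again in f14b3. Between 19 and 27 libraries held 0 positive windows of a given region. Neighbours in the order of the 5 means were within the spread between libraries.

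Across the 19 autosomes, 0 (0%) had a proximal coverage that differed from their distal coverage after adjustment, and 2 (10.5%) had an unadjusted p under the threshold of 0.05, chromosomes 11 and 15. Chromosome 15 was the member among them, with 2.00 percentage points more in the proximal region (SE 1.01, permutation p = 0.0454, adjusted p = 0.415). Chromosome 18 was the member with the opposite sign, at 5.25% in the proximal against 6.06% in the distal part (adjusted p = 0.518). For chromosomes 12, 16 and 19 the proximal excess was 0.894, 1.32 and 0.777 points (adjusted p from 0.457 to 0.518).

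**Figure D1:**
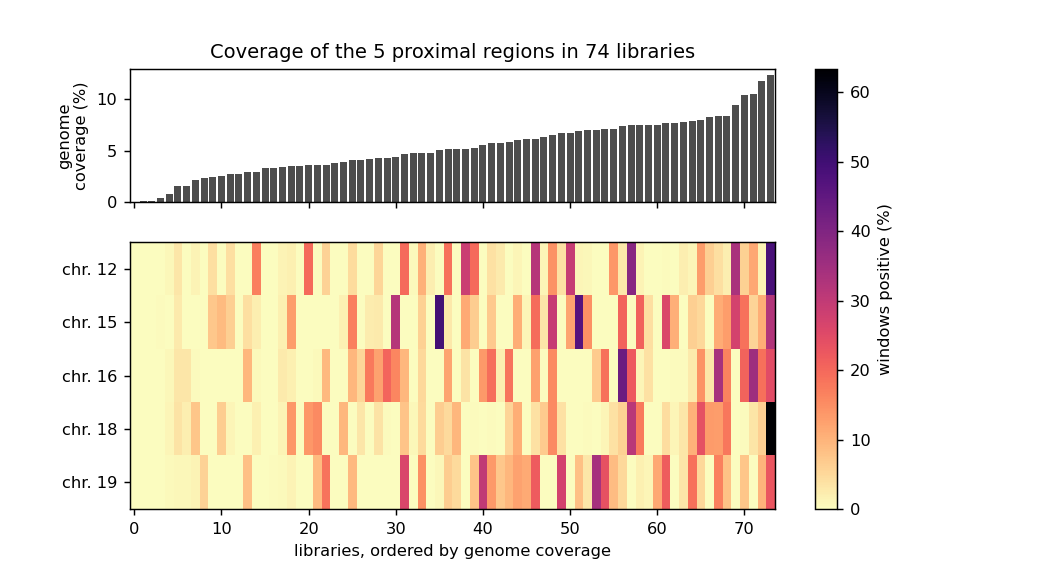
Percent of windows called positive in each of the 5 proximal regions (rows, colour scale) in the 74 libraries (columns, ordered by genome coverage, which the bars above give in percent). Most cells are pale, single libraries hold up to 63.4% of a region, and the library at the far right, f14b3, is dark in all 5 rows.

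Coverage was uneven within the regions. On chromosome 12 the steps of 5 Mb from 3 Mb onward were at 7.12%, 7.36%, 6.65% and 2.97%, and all 35 windows of this region that no library detected lay in the last step. Chromosome 18 went down in every step, from 6.14% to 4.43%. Chromosome 19 also went down in every step, from 7.29% to 5.29%, with 180 protein-coding genes in the first and 17 in the last. Chromosome 16 had 7.11%, 8.04%, 6.26% and 5.23%, with 42, 43, 75 and 79 protein-coding genes. Chromosome 15 stayed between 5.95% and 7.85%, although its 2 last steps held only 1 and 4 protein-coding genes. Coverage and number of genes thus did not go together in the same way in these regions. Over the 2469 member windows without unknown bases, the number of libraries that detected a window had a Spearman rho of 0.0158 with its GC content, a description across neighbouring windows that share libraries.

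Of the 2500 member windows, 2438 (97.5%) were detected in at least 1 library, with a median of 5 libraries and a highest number of 22. The window most often seen was chr12:3080001-3120000, positive in 22 of 74 libraries (29.7%), which overlaps an exon of the gene model Gm9075. On chromosome 16 the leading window was chr16:3240001-3280000 with 18 libraries (24.3%), over the gene model AC191865.1. These were the 2 member windows detected in over 15 libraries. Both lay close to the first sequenced base of their chromosomes, and both had fewer than 10 satellite matches (4 and 2).

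The remaining leading windows were each detected in 11 to 13 libraries. They included chr15:21520001-21560000, with 13 libraries and no gene, nearest to the cadherin gene Cdh12, and chr15:9920001-9960000, with 12 libraries and nearest to Prlr. The window chr12:11320001-11360000 had 11 libraries and covered exons of Smc6, a subunit of a chromosome maintenance complex, and Vsnl1. On chromosome 19, chr19:9960001-10000000 had 12 libraries and overlaps Incenp, which encodes a centromere protein of the chromosomal passenger complex, and chr19:7400001-7440000 had 11 and overlaps the kinase gene Mark2. Further ones were chr16:5320001-5360000 with 13 libraries and chr18:8240001-8280000 with 12, nearest to Wac.

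The outermost windows differed strongly. The window chr18:3000001-3040000 was positive in 13 libraries (17.6%), nearest to the vomeronasal receptor gene Vmn1r238. The corresponding windows of chromosomes 12 and 15 were positive in 4 and 6 libraries. Those of chromosomes 16 and 19 were positive in 0 of 74 libraries, which allows a share of up to 4.05%.

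Of 20 landmark genes listed for the 5 chromosomes, 19 lay inside the regions, and Id2 lay beyond the limit on chromosome 12. On chromosome 12, the window with the start of Mycn, a MYC-family transcription factor gene, was positive in 9 libraries. The windows of Pomc, which encodes a hormone precursor, and of Dnmt3a, which encodes a de novo DNA methyltransferase, were positive in 5 and 3. On chromosome 15 the start windows of Prlr and Ghr, the prolactin and growth hormone receptor genes, were detected in 8 and 7 libraries. The numbers were 4 for Rictor, a subunit of an mTOR complex, and 2 for the cadherin gene Cdh10.

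On chromosome 16 the genes Prm1, a sperm protamine, and Socs1, a suppressor of cytokine signalling, had 7 libraries each. Ciita, the activator of major histocompatibility class II genes, had 5, and Crebbp, a histone acetyltransferase gene, had 2. On chromosome 18 the start of Gata6, a transcription factor gene of the primitive endoderm, was detected in 8 libraries. It was 5 for the kinase gene Rock1 and 4 each for Dsg2, a desmosomal cadherin gene, and Ttr, which encodes a thyroid hormone carrier. On chromosome 19 the starts of the nuclear long non-coding RNA genes Malat1 and Neat1 were detected in 9 and 7 libraries, that of the ferritin gene Fth1 in 7 and that of the G protein gene Gnaq in 4. The start windows of the 19 genes are member windows themselves and had from 2 to 9 libraries, beside a median of 5 for all member windows.

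For the main comparison, co-segregation of 2 regions was the mean over libraries of the product of their coverages, and the trans ratio was that mean divided by the product of their mean coverages. A ratio of 1 is what unrelated regions would give in libraries of equal coverage. Differences between libraries in genome coverage can raise the ratio of unrelated regions. A single library of high coverage can still raise or lower a given pair. Without f14b3, for example, the ratio of chromosomes 8 and 18 went from 1.39 to 1.64. The ratio was averaged over all chromosome pairs of a class, and its error is a jackknife over the 74 libraries.

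Pairs of the 5 proximal regions had the highest mean ratio of the classes compared, and the widest error. The 10 member pairs had a ratio of 1.58 (SE 0.345, 95% interval 0.900 to 2.25), at a co-segregation of 0.609%. The 91 pairs among the 14 other autosomes had a proximal ratio of 1.38 (SE 0.0967, interval 1.19 to 1.57), at a co-segregation of 0.590%. The 70 pairs of a member with another autosome lay at 1.40 (SE 0.114). The distal parts of the 5 chromosomes had a ratio of 1.27 with each other (SE 0.124), and the distal parts of the other autosomes had 1.17 (SE 0.0445). The proximal region of a member and the distal part of a different member gave 1.37 (SE 0.212).

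The member pairs exceeded the other proximal pairs by 0.194 (SE 0.349, interval -0.490 to 0.877). The difference did not pass the two-sided sign-flip permutation test (p = 0.820, adjusted over the 5 trans contrasts p = 0.834), and it was positive in 20 libraries and negative in 53 of 74. Left without f14b3, it turned to -0.124 (p = 0.679), and the member ratio itself fell to 1.26, below the 1.38 of the other autosomes. Since f14b3 led the member product, a lower value without it follows from the choice of library, and the reverse choice, leaving out f14d4, raised the difference to 0.289. With all 74 libraries kept but each coverage divided by the library's autosomal coverage, the difference was -0.0885 (p = 0.645 in the permutation test), and the contrasts with mixed pairs and of differences and triplets turned negative too. The sign of the members' excess over other chromosome ends thus depended both on 1 nuclear profile and on this scaling.

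Against their own distal parts the member pairs were higher by 0.308 (SE 0.253, interval -0.187 to 0.804, permutation p = 0.505, adjusted p = 0.834), in 29 of 74 libraries, and by 0.0850 without f14b3. The gap between proximal and distal parts was larger in members than in the other autosomes by 0.0971 (interval -0.428 to 0.622, p = 0.802 in the permutation test). This difference of differences was -0.126 without f14b3. Over the pairs of a member with another autosome, member pairs stood 0.172 higher (interval -0.321 to 0.665, permutation p = 0.796), and the difference was -0.0599 without f14b3. The 95% interval of each of the 4 contrasts of pairs included 0. The sign-flip test seldom found links that had been planted in artificial tables, so its p-values say little about the absence of a difference, and the intervals give the range that these profiles allow.

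**Figure D2:**
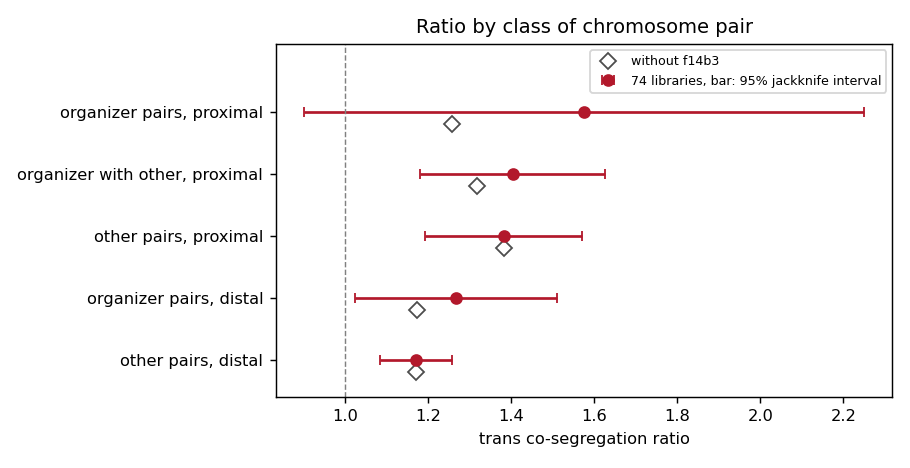
Mean trans co-segregation ratio (horizontal axis, no unit) of the chromosome pairs in each class, where organizer stands for chromosomes 12, 15, 16, 18 and 19. A ratio of 1 is for unrelated regions in libraries of equal coverage. Shuffles within 5 strata of coverage gave 1.28 for proximal organizer pairs and 1.28 for proximal other pairs. For distal organizer and distal other pairs they gave 1.27 and 1.20. Filled points are all 74 libraries with 95% jackknife intervals and open diamonds leave out f14b3, which moves the proximal organizer pairs from 1.58 to 1.26 and keeps the other proximal pairs at 1.38.

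A second test was added after these results had been seen. Each region's coverages were shuffled among libraries of similar autosomal coverage (5 strata), and the ratio in the shuffles was set against the measured one. Differences in coverage within a stratum remain in this test. For the member pairs the ratio of 1.58 stood against 1.28 in the shuffles, 1.23 times as high (two-sided permutation p = 0.00824, adjusted over the 4 classes p = 0.0110). The other proximal regions had 1.38 against 1.28, which was 1.08 times as high (p = 0.00630, adjusted p = 0.0110). The distal parts of the member chromosomes had 1.27 against 1.27 (p = 0.941), and those of the other autosomes were slightly below their shuffles, at 0.973 times (p = 0.00540, adjusted p = 0.0110). With 10 strata, which match coverage more closely, the members were at 1.12 times their shuffles (permutation p = 0.0881, adjusted p = 0.117) and the other proximal regions at 1.05 times (p = 0.0350, adjusted p = 0.0700), so that neither passed after adjustment over the 4 classes. The distal parts were then at 0.963 times in the members (p = 0.362) and at 0.968 times in the other autosomes (p = 0.0001, the smallest that these shuffles can give, adjusted p = 0.00040).

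Single libraries also moved the call. Without f14b3 the members were at 1.03 times their shuffles (permutation p = 0.649). The distal parts of the other autosomes were then at 0.977 times (permutation p = 0.0278, adjusted p = 0.0556), so that their call was lost too. For the proximal regions of the other autosomes the unadjusted p ranged from 0.00240 to 0.0265 as each library in turn was left out. With each region scored only as present or absent (present where at least 5% of its windows were positive), the members were at 1.12 times their shuffles (permutation p = 0.0412, adjusted p = 0.0824), and at 1.11 times without f14b3 (p = 0.0871, adjusted p = 0.116). The same score put the proximal regions of the other autosomes at 1.07 times (p = 0.00128, adjusted p = 0.00512) and their distal parts at 0.977 times (p = 0.0628, adjusted p = 0.0838), and the distal parts of the members at 1.00 times (p = 0.960). The member call was also lost in f13 libraries alone, in windows of 200 kb, and without chromosome 12 or chromosome 18.

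The library f14b3 was far apart from the others in the members. It held 48.6%, 32.4%, 24.6%, 63.4% and 22.8% of the proximal windows of chromosomes 12, 15, 16, 18 and 19, at a genome coverage of 12.4%. It contributed 32.7% of the summed product behind the member ratio. In the other autosomes the leading library contributed 13%.

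The next libraries in the members were f14d2 with 6.82% of the sum and f13c4 with 6.22%. f14d2 held 38.8% of the chromosome 12 region, 22.2% of 16 and 31.2% of 18, and 0% of 15 and 19. f13c4 held 31.6% of 12, 19.4% of 15, 12.4% of 16, 3.80% of 18 and 21.8% of 19. In 8 libraries the member product was 0.

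Split by name prefix, the member ratio was 1.20 in the 34 f13 libraries, beside 1.21 for the other proximal regions. In the 40 f14 libraries, which include f14b3, it was 1.81 beside 1.48. The difference between the sets was -0.00911 in f13 (permutation p = 0.980) and 0.330 in f14 (p = 0.850). Coverage of the chromosome 12 region was 4.38% in f13 and 7.43% in f14, whereas that of chromosome 15 was 8.75% and 5.95%. The lowest of the 5 was chromosome 12 in f13 and chromosome 18 (5.94%) in f14, where chromosome 12 was the highest. The part that the prefix plays in the ratio was not tested.

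Every one of the 10 member pairs had a ratio above 1, from 1.09 to 2.56, with a median of 1.51. A ratio above 1 was common elsewhere too, in 61 of the 70 pairs of a member with another autosome and in 78 of the 91 other pairs. Without f14b3 the numbers were 7 of 10, 59 of 70 and 76 of 91, and the member pairs below 1 were 18 and 19 (0.966), 12 and 19 (0.996) and 15 and 19 (0.959). The median over all pairs of proximal regions of the 19 autosomes was 1.33. Set against shuffles among libraries of similar coverage, fewer pairs stood out. The measured value was above its shuffles in 8 of 10 member pairs, 48 of the 70 mixed pairs and 59 of the 91 other pairs. The member pairs below their shuffles were 12 and 19 (0.998 times) and 15 and 19 (0.871 times). Chromosomes 12 and 18 were the leading member pair, at 2.56 (SE 1.01), which ranked 2 among all pairs. Without f14b3 this ratio was 1.65, and the distal parts of the same chromosomes had 1.49. The whole chromosomes had been known as a leading pair in these libraries before the regions were drawn, so that the proximal value is not independent of it.

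Chromosomes 16 and 18 followed with 1.80 (SE 0.395), 15 and 18 with 1.66 (SE 0.561), 12 and 15 with 1.61 (SE 0.430) and 12 and 16 with 1.55 (SE 0.350). The middle of the order held 16 and 19 with 1.47 (SE 0.223) and 15 and 16 with 1.39 (SE 0.278). The lowest member pairs involved chromosome 19, at 1.37 with 18 (SE 0.458), 1.25 with 12 (SE 0.379) and 1.09 with 15 (SE 0.252). The step from the leading pair to the next was smaller than the SE of the leading pair but larger than that of the next, and the other neighbours were closer to each other than either SE.

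Each pair was tested by shuffling 1 region among libraries of similar coverage of the other autosomes. Of all pairs of the 19 autosomes, 0 (0%) passed after adjustment, and 16 (9.36%) had an unadjusted permutation p under 0.05. Of the 10 member pairs, 0 passed and 1 had an unadjusted p under 0.05, 12 and 18 (p = 0.00678, adjusted p = 0.193). This share of 1 in 10 was close to the background of all pairs. The highest pair outside the members was 6 and 14 (2.81, SE 0.673, adjusted p = 0.150), and the lowest was 6 and 8 (0.712, SE 0.177, adjusted p = 0.694).

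**Figure D3:**
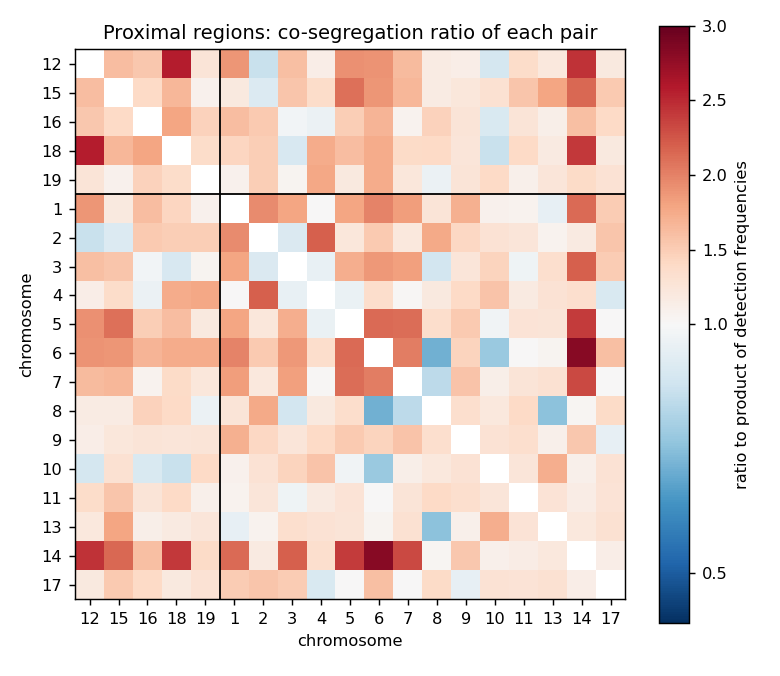
Trans co-segregation ratio (colour, white at 1) for every pair of proximal regions of the 19 autosomes, with chromosomes 12, 15, 16, 18 and 19 in the block at the upper left. The block holds 10 pairs between 1.09 and 2.56, and darker cells of similar size occur outside it, such as 6 and 14 at 2.81.

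The regions were also scored simply as present or absent. A region was present in 20 (chromosome 12), 30 (15), 27 (16), 23 (18) and 31 (19) libraries. Both regions of a pair were present in more libraries than the product of their frequencies gives in 10 of 10 member pairs, in 64 of the 70 pairs of a member with another autosome and in 81 of the 91 other pairs. The numbers were small. Chromosomes 15 and 19 shared 16 libraries where 12.6 would come from independent regions, and 16 and 19 shared 19 against 11.3. Chromosomes 12 and 18 shared 7 libraries against 6.22, a smaller excess than in their ratio of coverages.

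A GAM profile also shows how many of the regions lie in 1 slice. From 0 to 5 of the regions were present in 17, 17, 19, 10, 9 and 2 libraries, with a mean of 1.77 ± 1.41 (SD, n = 74). If the regions were independent at the same frequencies, 8.17 libraries would hold none, 3.66 would hold 4 and 0.385 would hold all 5, where 17, 9 and 2 did. The last 20 Mb of the same chromosomes, at a mean of 1.58 ± 1.26, were all absent in 20 libraries, with 4 of them present in 3 libraries and all 5 in 1, where 10.8, 2.40 and 0.206 would come from independent regions. The 2 profiles with all 5 proximal regions were f14b3 and f14a6, at genome coverages of 12.4% and 8.02%. By the same limit they also held 10 and 11 of the proximal regions of the 14 other autosomes. The 9 profiles with 4 of the member regions had genome coverages from 4.65% to 11.8%. With a single positive window as the limit for presence, 4 proximal regions were held by fewer libraries than independence gives (16 against 26), and all 5 by more (23 against 11.4). The part of genome coverage in these counts was not tested. Presence was shuffled within strata of coverage for pairs of regions only, as given above.

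**Figure D4:**
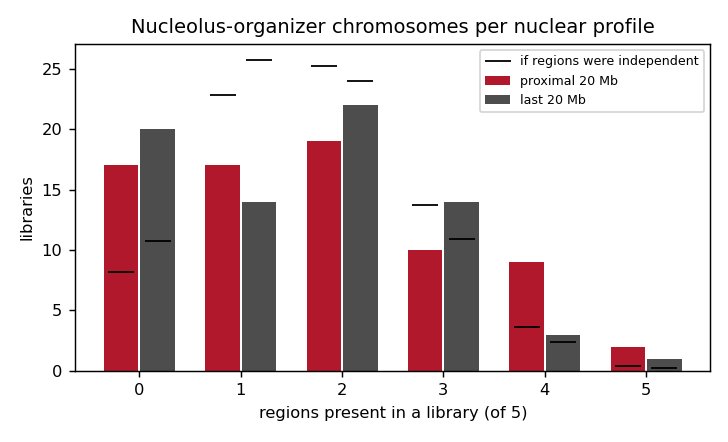
Number of libraries (vertical axis) by how many of the 5 regions were present (horizontal axis), for the proximal 20 Mb (red) and the last 20 Mb (grey) of the same chromosomes. Black marks give the number for independent regions, and the bars exceed the marks at 0, 4 and 5 regions for both ends, by little at 4 regions in the last 20 Mb (3 against 2.40).

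Triplets of regions were compared in the same way. The 10 triplets of members had a mean ratio of 4.19 (SE 2.67), and the 364 triplets of other autosomes had 2.23 (SE 0.422). The difference of 1.96 (interval -3.34 to 7.26) did not pass the sign-flip permutation test (p = 0.834) and was -0.589 without f14b3. The member triplets were then at 1.67 and the others at 2.26. By presence, chromosomes 15, 16 and 19 had the highest number of libraries with all 3 regions present among the 10 member triplets. It was 11 where 4.59 would come from independent regions, and chromosomes 12, 16 and 18 had 5 where 2.27 would. The numbers for independent regions take no account of differences in coverage between libraries. Triplets of the other autosomes were not counted by presence, so these values have no background beside them.

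With distance from the first sequenced base, the member ratio went from 1.68 (SE 0.309) over the first 10 Mb to 1.54 (SE 0.400) from 10 to 20 Mb, 1.32 (SE 0.133) from 20 to 30 Mb and 1.28 (SE 0.191) from 30 to 40 Mb. It was 1.55 (SE 0.241) from 40 to 50 Mb. In the other autosomes the values for the same steps were 1.42, 1.33, 1.23, 1.25 and 1.21. Without f14b3 the member values were 1.42, 1.17, 1.27, 1.13 and 1.37, and the step nearest the centromere was then beside 1.41 in the other autosomes. With all libraries the gap in this step was already smaller than the SE of the member value. Coverage of the members dropped from 7.08% to 5.49% between the first pair of steps, and that of the other autosomes from 6.65% to 6.48%. The steps were read as a description, with no test of the trend.

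**Figure D5:**
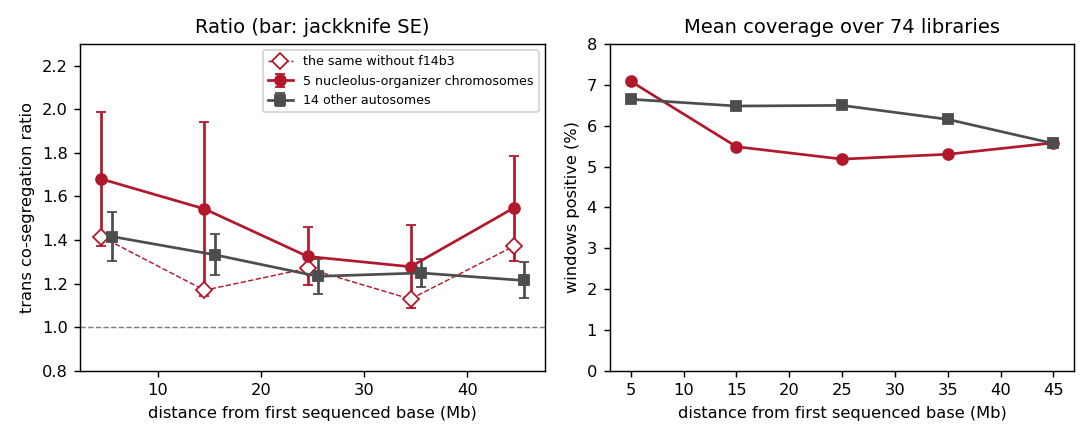
Left, trans co-segregation ratio (no unit) in steps of 10 Mb from the first sequenced base for the 5 nucleolus-organizer chromosomes (red circles), the same without f14b3 (open diamonds) and the 14 other autosomes (grey squares), with jackknife SE. Right, mean percent of windows positive over 74 libraries, where the red line starts at 7.08%, falls to 5.18% and ends at 5.58%, and the grey line goes from 6.65% to 5.56%.

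Within a region, windows were found together far more often than between chromosomes. The cis ratio of the members, the co-segregation of 2 windows over the product of their detection frequencies, was 7.90 (SE 0.680) at 0.04 Mb, 6.35 at 0.2 Mb, 4.64 at 1 Mb, 3.30 at 4 Mb and 2.72 (SE 0.437) at 10 Mb. The other proximal regions had 7.30, 5.96, 4.52, 3.21 and 2.64. The differences, from 0.0791 to 0.603, did not pass the sign-flip permutation test at any of the 5 distances (adjusted p = 0.923 at each). In f14 libraries alone the differences were negative at all 5 distances, from -0.0648 to -0.478, and without f14b3 they were -0.176 at 4 Mb and -0.179 at 10 Mb. At 0.04 Mb the interval of the difference was -0.563 to 1.77. Among the members the chromosome 18 region had the highest ratio at 0.04 Mb (9.45) and chromosome 15 the lowest (7.03).

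The assembly holds a copy of ribosomal RNA precursor sequence on chromosome 17, and the most detected window of that chromosome, chr17:39960001-40000000, covers the pseudogene AY036118 in it. This window was positive in 20 of 74 libraries (27%). Its ratio with the 5 member regions averaged 1.56 (SE 0.222), and it was 1.96 with chromosome 12 (SE 0.402), 1.96 with chromosome 18 (SE 0.422), 1.40 with 16, 1.32 with 19 and 1.18 with 15. With the proximal regions of the other autosomes it averaged 1.30 (SE 0.144), from 0.752 for chromosome 13 to 1.78 for chromosome 14. The members were 0.260 higher (SE 0.180), a difference given without a test, and the ranges of both sets overlapped. The calls do not tell from which copy of a repeated sequence the reads came.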

How the data were processed

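The data were 74 single-profile GAM libraries of 46C mouse embryonic stem cells, amplified with the Sigma WGA4 kit and prepared with Nextera, per the labels. The deposited values are the authors' calls, 1 or 0 for each 40 kb window of mm9 and library, in another unit than counts, with no normalization. The submitters' processing notes name Bowtie2 2.1. The threshold on reads for single profiles is not given in the sources used here, and a higher one would lower coverage and co-segregation together. All library columns matched a sample.

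The members, landmark genes and comparisons were chosen with earlier results of these data known. Coverage was the percent of a region's windows called positive. Distal parts were all windows from 23 Mb on. Contrasts over the 74 libraries were tested by sign-flip permutation of the per-library difference (100000 resamples, two-sided, smallest p 1e-05), and pairs by shuffling within 5 strata of coverage. The Benjamini-Hochberg method adjusted p over 5 trans contrasts, 2 coverage contrasts, 5 distances, 171 pairs and 19 autosomes, with a threshold of 0.05. Intervals are the value ± 1.96 jackknife SE. The statistics were tested on artificial tables, where the sign-flip test seldom found planted links between regions. The shuffle test of whole classes and the score for presence were therefore added after the data had been seen.

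Named were the 2 most detected windows and the first window free of unknown bases per region, 20 landmark genes, all member pairs with the highest and lowest other pair, the 3 libraries with the highest member product, any library that alone changed a call, and 1 window of chromosome 17. Genes came from GENCODE annotation of NCBIM37. Python 3.11.15, numpy 2.4.6, pandas 2.3.3 and scipy 1.17.1 were used. Alternatives covered libraries, filters on windows, the interval, normalization, strata and left-out libraries and chromosomes.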

Additional observations from a re-analysis of the deposited data

How the results depend on the processing

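Over 16 results, 172 alternatives (150 planned, 22 added after seeing the data) were run besides leaving out each library. Of these, 145 left direction and call as they were, 18 reversed the direction and 9 changed the call or moved a count. A kept direction did not mean a kept size. The excess of member over other proximal pairs, 0.194 as reported, was 0.0115 without chromosome 18 and 0.380 without chromosome 19. The triplet difference, 1.96 as reported, was 0.447 without chromosome 18 and 3.90 with isolated positive windows set to negative.

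The excess of member over other proximal pairs turned to -0.00911 in f13 libraries alone and to -0.0885 with coverages divided by the library's autosomal coverage. Member proximal over own distal pairs gave -0.0894 in f13 libraries. The difference of differences gave -0.162 in f13 libraries, -0.000223 with windows detected in 5% to 10% of libraries, -0.120 with divided coverages and -0.0734 without chromosome 18. Member over mixed pairs gave -0.0241 in f13 libraries, -0.0257 with divided coverages and -0.00354 without chromosome 18. The triplet difference gave -0.162 with divided coverages. The coverage of members minus other autosomes gave 0.0798 in f14 libraries and 0.437 from 3 to 13 Mb. Members' proximal minus distal coverage passed the threshold from 3 to 13 Mb (1.63) and without chromosome 18 (1.25). The cis differences in f14 libraries were -0.0648, -0.112, -0.394, -0.231 and -0.478 at 0.04, 0.2, 1, 4 and 10 Mb. The member ratio over its shuffles lost its call in f13 libraries (1.03), in 200 kb windows (1.10), without chromosome 12 (1.14), without chromosome 18 (1.07) and with 10 strata (1.12). Here and in the counts above, the call of this result was judged by its unadjusted p. Scored as present or absent, it kept the call on that basis (permutation p = 0.0412). It lost the call after adjustment over the 4 classes (adjusted p = 0.0824). With at least 1 window as the limit for presence, a library held 3.45 of the 5 regions. With 3 strata, 3 pairs of proximal regions passed, 0 of them members. What caused the shifts was not tested, and some settings also use fewer libraries, windows or chromosomes.

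With each library left out in turn, the excess over other proximal pairs lay between -0.124 and 0.289, over own distal pairs between 0.0850 and 0.355, the difference of differences between -0.126 and 0.198, the excess over mixed pairs between -0.0599 and 0.207 and the triplet difference between -0.589 and 2.51. The coverage differences lay between -0.589 and -0.115 and between 0.614 and 0.945, and the member ratio over its shuffles between 1.03 and 1.27. The cis differences stayed above 0 at 0.04, 0.2 and 1 Mb and reached -0.176 at 4 Mb and -0.179 at 10 Mb. Each of the reversals, and the loss of the call on the member ratio over its shuffles, came without f14b3. The distal parts of the other autosomes also lost their call in the shuffle test without this library. The libraries form 1 group with no replicate numbers to pair across groups, and each contrast was taken within libraries. Depth is unknown and limits what a negative call means.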
